A study of Rattus norvegicus with 22 samples.

Results

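The S100A genes examined here are S100a1, S100a4, S100a6, S100a8, S100a9, S100a10, S100a11, S100a13 and S100a16, a list set by gene name. They are 9 of the 17172 genes in the count table, and all 9 had enough counts to be tested among 12875 genes. RNA-seq was performed on polyadenylated RNA from the ipsilateral hippocampus of 14 adult male Sprague-Dawley rats. Day 1 holds 2 rats with sham surgery and 4 with TBI, and day 14 holds 4 of each. TBI was a moderate lateral fluid percussion injury, a pressure pulse given to the intact dura through an opening in the skull. Sham rats had the opening, the injury hub and the anesthesia without the pulse, so every group carried a craniectomy, and no group without surgery was compared here.

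S100 proteins are small calcium-binding proteins with EF-hand motifs that act mostly as dimers. Inside cells they change the activity of partner proteins when calcium rises, and some are released from activated or damaged cells and then signal as alarmins through receptors such as RAGE and TLR4. S100A8 and S100A9 form calprotectin, the major cytosolic protein of neutrophils and an abundant product of monocytes. Other members are found in astrocytes, endothelium, macrophages and fibroblasts, with S100B, which is not an S100A gene, as the best known astrocyte member.

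In the RefSeq annotation of the build GRCr8, all 9 genes lie on chromosome 2, in the order S100a1, S100a13, S100a16, S100a4, S100a6, S100a8, S100a9, S100a11 and S100a10. The first 3 genes in that order are the 3 that did not pass the test after TBI at day 1, and the other 6 are the ones that did. Other S100 genes were not placed in this order, S100a16 passed in some of the alternatives given below, and the split was not tested. The promoter table held an entry for 6 of the 9 genes. Shown here are the 250 bases before the RefSeq start of S100a9, S100a4 and S100a11, which were higher at day 1, and of S100a16, which was not called, all on GRCr8 and written 5′ to 3′ on the strand of the gene. The positions are chr2:178490623-178490872 on the minus strand for S100a9, and on the plus strand chr2:178388279-178388528 for S100a4, chr2:181874882-181875131 for S100a11 and chr2:178313736-178313985 for S100a16. Capitals mark matches to the motifs searched on both strands.
S100a9: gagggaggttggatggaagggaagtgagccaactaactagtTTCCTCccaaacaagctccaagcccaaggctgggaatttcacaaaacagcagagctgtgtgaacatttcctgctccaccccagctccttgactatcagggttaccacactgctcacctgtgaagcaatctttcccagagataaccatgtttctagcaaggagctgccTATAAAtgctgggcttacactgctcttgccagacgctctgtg
S100a4: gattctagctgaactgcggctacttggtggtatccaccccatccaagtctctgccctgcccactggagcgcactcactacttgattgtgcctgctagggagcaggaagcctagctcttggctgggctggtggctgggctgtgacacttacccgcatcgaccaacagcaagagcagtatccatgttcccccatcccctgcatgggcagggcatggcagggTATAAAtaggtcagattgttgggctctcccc
S100a11: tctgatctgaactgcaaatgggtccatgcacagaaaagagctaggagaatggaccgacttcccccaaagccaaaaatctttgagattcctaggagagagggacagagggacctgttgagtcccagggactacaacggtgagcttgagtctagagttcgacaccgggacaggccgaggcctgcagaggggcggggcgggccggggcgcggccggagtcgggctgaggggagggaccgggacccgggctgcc
S100a16: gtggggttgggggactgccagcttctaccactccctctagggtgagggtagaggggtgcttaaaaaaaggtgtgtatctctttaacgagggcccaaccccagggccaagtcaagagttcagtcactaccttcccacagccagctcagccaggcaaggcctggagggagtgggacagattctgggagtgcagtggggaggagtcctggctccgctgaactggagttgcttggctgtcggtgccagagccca
The letters TATAAA, the core of a TATA box, stood 42 to 37 bases before the start of S100a9 and 31 to 26 bases before that of S100a4, and 12.9% of the 33469 rat promoter windows of this length hold them. The ETS letters GAGGAA were found in S100a9 on the other strand, as TTCCTC, 209 to 204 bases before the start, and 23.3% of all windows hold them. The shorter ETS core GGAA was not searched, and unmarked copies of it stand in these windows. None of the 6 windows held the C/EBP letters TTNNGCAA (9.22% of all windows), the AP-1 letters TGANTCA (6.34%) or the STAT letters TTCNNNGAA (7.67%), and no match overlapped another. The GC content of these windows was 50.4% for S100a9, 55.6% for S100a13, 57.6% for S100a4, 59.2% for S100a16, 62.0% for S100a11 and 62.4% for S100a6, beside a median of 51.2% over all windows.

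Total counts per rat ran from 15065540 to 23743703 over the 4 groups. Markers of the labelled tissue were present in every library, with at least 24014 counts of the neuronal gene Snap25 and at least 9101 of the astrocyte gene Aqp4. 3 libraries stood apart from the rest of their groups. Transthyretin (Ttr), the leading gene of the choroid plexus, had 140652 counts in sham day 1 replicate 1 against 70 in replicate 2, and 24020 and 141619 counts in TBI day 14 replicates 2 and 3 against 170 and 92 in replicates 1 and 4. Summed over the 15 listed choroid plexus and ependyma markers, 1 of which (Otx2) was not tested, the level in CPM (counts scaled to library size, with TMM factors) was 214 and 11262 for the sham rats of day 1 and 171 to 271 for those of day 14, and the TBI rats had 137 to 187 at day 1 and 248 to 8784 at day 14. Values without these 3 libraries are given beside the results that they changed most. Because the tissue is bulk hippocampus, a change in the number of cells of a type and a change in RNA per cell cannot be told apart for any gene below.

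At day 1 after TBI, 6 of the 9 S100A genes were higher than in time-point-matched sham, 0 were lower and 3 did not pass the test (edgeR quasi-likelihood, two-sided, Benjamini-Hochberg adjusted p under 0.05). The count of 0 lower was the same at an unadjusted p under 0.05, by limma-voom and by DESeq2, and limma-voom and DESeq2 each called 6 higher. The background was 11.2% of all tested genes called higher and 7.93% called lower. The median log2 fold change of the 9 genes was 3.68, beside -0.015 over all tested genes. The calls covered both calprotectin genes, S100a8 and S100a9, and S100a4, S100a6, S100a10 and S100a11. In each of the 6, all 4 TBI rats lay above both sham rats, which was the case for 16.7% of all tested genes. At day 14, 1 member, S100a4, was called higher and 0 lower, against a background of 4.07% higher and 0.365% lower, and DESeq2 called 2 (S100a4 and S100a6). At an unadjusted p under 0.05, 4 were higher and 0 lower. In 4 members (S100a4, S100a6, S100a13 and S100a16) all TBI day 14 rats lay above all sham day 14 rats, as for 9.13% of all tested genes.

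**Figure D1:**
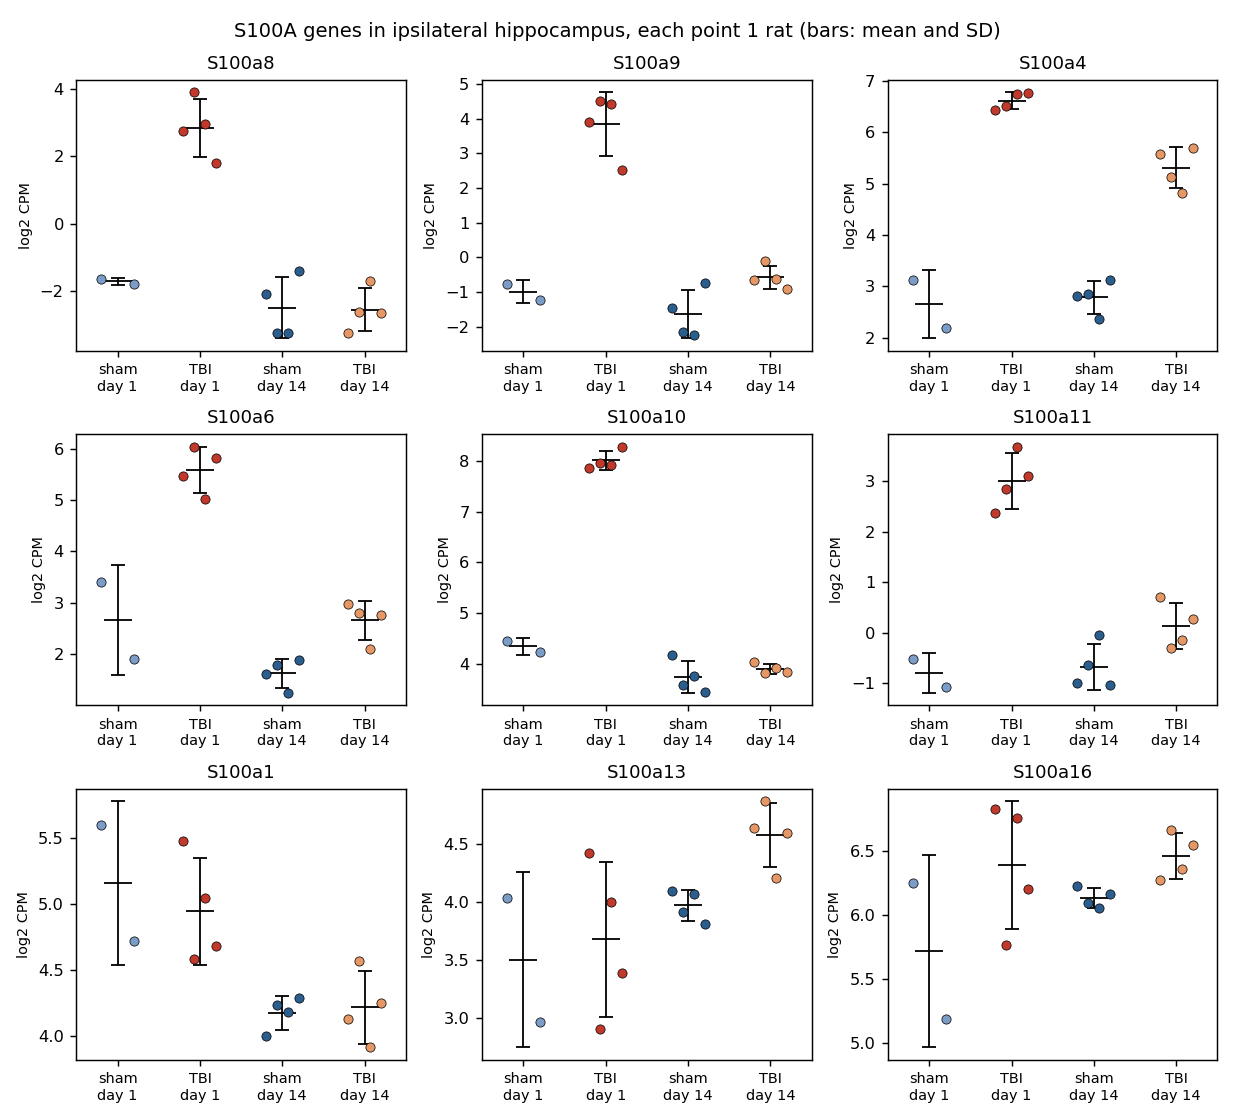
Level of each S100A gene in log2 CPM (prior count 2, vertical axis, with a scale of its own in each panel) in sham and TBI rats at day 1 and day 14. Each point is 1 rat and the bars give the mean and SD; S100a8, S100a9, S100a6, S100a10 and S100a11 stand high in the 4 TBI day 1 rats, S100a4 in both TBI groups, and S100a1, S100a13 and S100a16 overlap between TBI and sham at day 1.

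S100a8 and S100a9 encode the calprotectin subunits. S100a8 had 4 and 4 counts in the sham day 1 rats and 127, 368, 166 and 75 counts in TBI day 1 replicates 1 to 4. The sham day 14 rats had 2, 0, 0 and 5 counts and the TBI day 14 rats 0, 1, 4 and 1. All 4 TBI day 1 rats were thus far above every other rat, and the other 3 groups overlapped near the floor of detection. The level rose from 0.215 and 0.184 CPM in sham day 1 to 6.59, 14.9, 7.61 and 3.36 CPM in TBI day 1, a log2 fold change of 5.31 (SE 0.87, 95% interval 3.45 to 7.17, edgeR adjusted p = 0.000833). S100a9 had 9 and 7 counts in sham day 1 and 287, 561, 469 and 125 in TBI day 1. The sham day 14 rats had 4, 2, 2 and 9 counts and the TBI day 14 rats 8, 14, 11 and 8, so that TBI and sham overlapped at the later day. Its level in TBI day 1 was 16.2 CPM ± 7.86 (SD, n = 4), with 0.484 and 0.322 CPM in the sham rats, a log2 fold change of 5.32 (SE 0.65, 95% interval 3.93 to 6.70, edgeR adjusted p = 7.72e-05). At day 14 the differences were -0.27 (95% interval -2.60 to 2.07, edgeR adjusted p = 0.973) for S100a8 and 1.21 (-0.06 to 2.47, adjusted p = 0.414) for S100a9. Only 7 S100a8 counts were found over the 4 sham rats of day 14 and 6 over the 4 TBI rats, and the interval lies below the rise found at day 1, whereas a fall or a smaller rise of S100a8 was not detectable at this depth. The S100a9 value at day 14 ran up to 1.81, without sham day 14 replicate 4.

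Both subunits are made in the same cells, and their reads were compared within each library. S100a8 gave 30.7% of the summed S100a8 and S100a9 counts in TBI day 1 replicate 1 (exact 95% binomial interval 26.3 to 35.4), 39.6% in replicate 2 (36.5 to 42.8), 26.1% in replicate 3 (22.8 to 29.7) and 37.5% in replicate 4 (30.8 to 44.6). The intervals of replicates 2 and 3, the rats with the highest and the lowest share, do not overlap. Such intervals treat every read as independent, and the reads carry no molecular identifiers, so the real counting error can be larger. Whether the share differed among the injured rats was not tested. In sham day 1 the shares were 30.8% (9.09 to 61.4) and 36.4% (10.9 to 69.2), too few counts to set apart from the injured rats.

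S100a4 and S100a6 encode proteins linked to cell motility and growth: S100A4 binds non-muscle myosin heavy chain, and S100A6 binds the calcyclin-binding protein. S100a4 had 160 and 96 counts in sham day 1 and 1661, 2247, 2333 and 2432 counts in TBI day 1. Day 14 gave 105, 118, 93 and 159 counts in sham and 718, 598, 568 and 973 in TBI. The TBI and sham rats did not overlap at either day. In CPM the injured rats had 98.3 ± 11.3 (SD, n = 4) at day 1 and 40.6 ± 10.8 (SD, n = 4) at day 14, with 8.62 and 4.43 in the sham rats of day 1 and 5.03 to 8.65 in those of day 14. By log2 fold change S100a4 was higher by 3.92 at day 1 (SE 0.33, 95% interval 3.21 to 4.63, edgeR adjusted p = 5.63e-06) and by 2.55 at day 14 (SE 0.24, 2.05 to 3.06, adjusted p = 1.38e-05). S100a4 was therefore the single member called higher at both days.

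S100a6 had 196 and 79 counts in sham day 1 and 845, 1618, 702 and 1252 in TBI day 1. Day 14 gave 45, 56, 42 and 66 counts in sham and 117, 117, 84 and 127 in TBI. Here too the TBI rats lay above the sham rats at both days without overlap, but the test was passed only at day 1. The log2 fold change was 2.81 at day 1 (SE 0.41, 95% interval 1.93 to 3.68, edgeR adjusted p = 0.000338). It was 3.76 without sham day 1 replicate 1, the library high in Ttr. At day 14 it was 1.06 (0.37 to 1.75, edgeR adjusted p = 0.0915), and 1.27 with an adjusted p of 0.0179 without the 3 libraries high in choroid plexus markers.

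S100a10 and S100a11 encode partners of annexins. S100A10, also called p11, forms a tetramer with annexin A2 that binds plasminogen at the cell surface, and S100A11 binds annexin A1. S100a10 had 406 and 403 counts in sham day 1 and 4478, 6139, 5275 and 6944 in TBI day 1. At day 14 the counts were 275, 197, 250 and 199 in sham and 245, 240, 301 and 269 in TBI, with the groups overlapping. Its CPM was 259 ± 35.6 (SD, n = 4) after TBI at day 1, with 21.9 and 18.6 in the matched sham rats, and 14.1 to 16.3 after TBI at day 14, with 10.8 to 18.0 in the matched sham rats. The log2 fold change was 3.68 at day 1 (SE 0.22, 95% interval 3.21 to 4.15, edgeR adjusted p = 3.41e-07), the smallest SE of the 6 called genes. At day 14 it was 0.13 (-0.19 to 0.46, adjusted p = 0.84), an interval that leaves out a change of the size seen at day 1.

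S100a11 had 11 and 8 counts in sham day 1 and 98, 174, 278 and 190 in TBI day 1. The day 14 counts were 6, 9, 16 and 7 in sham and 23, 12, 16 and 21 in TBI, with overlap. Its log2 fold change was 4.11 at day 1 (SE 0.52, 95% interval 3.01 to 5.21, edgeR adjusted p = 9.83e-05) and 0.89 at day 14 (0.04 to 1.74, adjusted p = 0.34). In GRCr8, S100a10 has 1 annotated pseudogene and S100a11 has 5, with 2 further genes named as similar to S100a11. How reads shared with such copies were counted is not given in the sources used here, so the absolute counts of these genes are uncertain.

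S100a1, S100a13 and S100a16 were not called at either day. S100A1 is known from heart muscle, where it binds the ryanodine receptor and the calcium pump. S100a1 had 895 and 568 counts in sham day 1 and 855, 587, 715 and 569 in TBI day 1, with 242, 311, 333 and 357 in sham day 14 and 262, 403, 301 and 359 in TBI day 14. TBI and sham overlapped at both days, and the log2 fold changes were -0.24 (95% interval -0.80 to 0.33, edgeR adjusted p = 0.566) at day 1 and 0.06 (-0.42 to 0.53, adjusted p = 0.971) at day 14. Its level stood higher at day 1 than at day 14 instead, by calls that did not hold in every fit, as given below. In CPM it was 23.8 to 48.2 in the 6 rats of day 1 and 15.0 to 23.6 in the 8 rats of day 14.

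S100A13 takes part in the release of FGF1 and interleukin-1 alpha by a route outside the classical secretory pathway. S100a13 had 302 and 167 counts in sham day 1 and 410, 181, 347 and 231 in TBI day 1, with overlap. The day 14 counts were 258, 248, 307 and 256 in sham and 374, 497, 369 and 454 in TBI, without overlap. The log2 fold changes were 0.19 (95% interval -0.57 to 0.96, edgeR adjusted p = 0.735) at day 1 and 0.63 (0.01 to 1.24, adjusted p = 0.364) at day 14. S100A16 is a widely expressed member of the family. S100a16 had 1407 and 787 counts in sham day 1 and 2190, 1340, 2357 and 1640 in TBI day 1, with 1142, 1135, 1224 and 1313 in sham day 14 and 1162, 1728, 1650 and 1765 in TBI day 14. In CPM the TBI rats overlapped the sham rats at day 1 and lay above them at day 14. The log2 fold change was 0.64 at day 1 (0.02 to 1.26, edgeR adjusted p = 0.133) and 0.33 at day 14 (-0.16 to 0.83, adjusted p = 0.658). Without sham day 1 replicate 1 the day 1 value of S100a16 was 1.26 with an adjusted p of 0.0160, and it was 0.81 with an adjusted p of 0.0490 without TBI day 1 replicate 2.

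**Figure D2:**
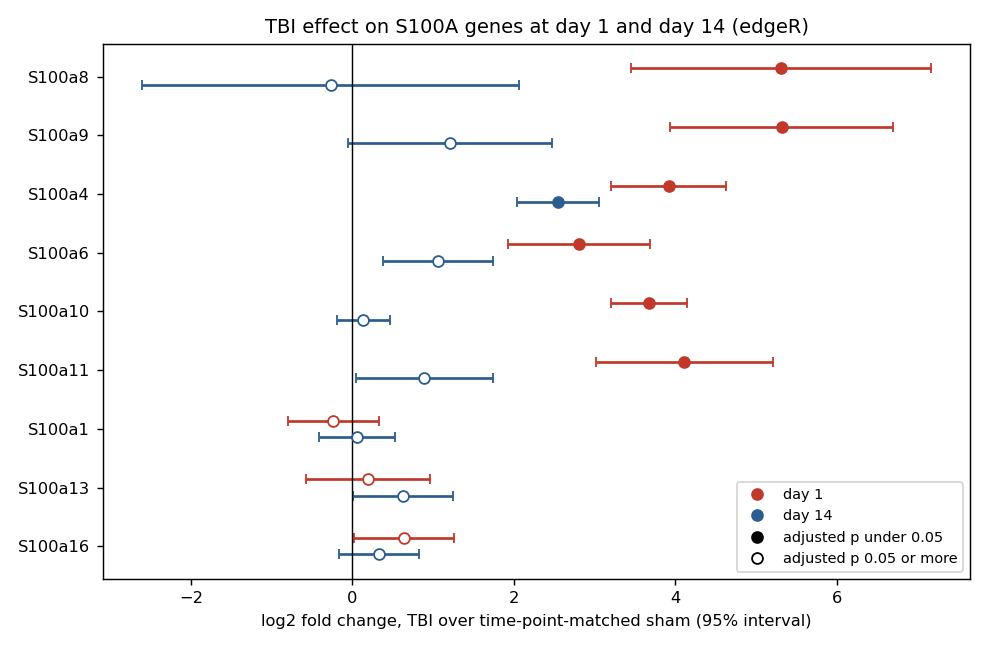
Log2 fold change of TBI over time-point-matched sham (horizontal axis) for each S100A gene, with 95% intervals from edgeR, at day 1 (red) and day 14 (blue); filled points have an adjusted p under 0.05. At day 1 the 6 filled points lie between 2.81 and 5.32, with S100a8 and S100a9 farthest to the right and with the widest intervals, and at day 14 only S100a4 at 2.55 is filled.

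Whether the effect of TBI differed between day 1 and day 14 was tested for each gene as an interaction, and the effect was higher at day 1 for 2.24% of all tested genes. For 3 of the 9 members the effect was larger at day 1. The difference was 3.54 for S100a10 (SE 0.26, 95% interval 2.99 to 4.09, edgeR adjusted p = 9.64e-06), 3.22 for S100a11 (SE 0.63, 1.87 to 4.57, adjusted p = 0.0123) and 4.11 for S100a9 (SE 0.89, 2.20 to 6.02, adjusted p = 0.0210), on the log2 scale. The call for S100a10 held in every alternative tried, whereas those for S100a9 and S100a11 had adjusted p-values of 0.0809 and 0.0616 without sham day 1 replicate 2 and of 0.0794 and 0.0704 without the 3 libraries high in choroid plexus markers. Without sham day 14 replicate 4 the difference for S100a9 was 3.5 with an adjusted p of 0.0942. S100a8 had the largest difference, 5.58, but its interval of 2.4 to 8.75 was the widest and the adjusted p was 0.0527 by edgeR. S100a4 (1.37, adjusted p = 0.0537) and S100a6 (1.75, adjusted p = 0.0659) also missed the threshold by edgeR. The difference between the days was thus not established for S100a4, although its fitted fold change was smaller at day 14. Without sham day 1 replicate 1 the differences were 1.92 for S100a4 (adjusted p = 0.0187) and 2.70 for S100a6 (adjusted p = 0.00853).

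Within TBI, the change from day 1 to day 14 was compared directly. It was lower at day 14 for 7 members and higher for 1, against backgrounds of 21.9% and 17.6% of all tested genes. The log2 fold change was -6.50 for S100a8, -4.79 for S100a9, -4.12 for S100a10, -3.02 for S100a11 and -2.96 for S100a6. For these 5, for S100a4 and for S100a1 the rats of both days did not overlap, as for 19.1% of all tested genes in this direction. S100a4 fell by 1.28 (SE 0.22, edgeR adjusted p = 0.000434), the smallest decrease among the genes called at day 1 against sham, and its level at day 14 stayed above sham. The S100a6 level of all TBI day 14 rats also lay above that of the sham day 14 rats, after a larger fall. The S100a8 value was -7.46 without TBI day 14 replicate 3, which held 4 of the 6 S100a8 counts of its group. S100a1 fell by 0.75 (edgeR adjusted p = 0.0144), with an adjusted p of 0.0518 without TBI day 14 replicate 3. S100a13 rose by 0.81 (edgeR adjusted p = 0.0364) with overlapping rats, and this call was lost in 5 of the 8 fits that left out 1 TBI rat, with values from 0.60 to 0.81. S100a16 differed by 0.02 (95% interval -0.47 to 0.51, edgeR adjusted p = 0.963).

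The sham groups of the 2 days served as the background of surgery and day. The paper states a correction for batch effect in its trajectories, but the sample labels name no batch and none was fitted here. A batch that went with the day cannot be told apart from the day. S100a1 (1.05, edgeR adjusted p = 0.0148), S100a6 (1.21, adjusted p = 0.0363) and S100a10 (0.58, adjusted p = 0.0398) were higher in the sham rats of day 1 than in those of day 14, 3 of 9 members against a background of 11.3%. Without sham day 1 replicate 1 the values were 0.54, 0.26 and 0.46, and none of the 3 passed. With the mean log2 CPM of the choroid plexus and ependyma markers as covariate, the 3 values were 0.87, 0.94 and 0.53. None passed there either (edgeR adjusted p = 0.0510, 0.144 and 0.0852). Apart from the fit without the 3 libraries given below, the choroid plexus signal in these values was not tested further. With sham day 14 as the baseline, TBI day 1 was higher for 7 members, against a background of 25.0%, with log2 fold changes of 6.23 for S100a8, 6.00 for S100a9, 4.26 for S100a10, 4.02 for S100a6, 3.91 for S100a11, 3.83 for S100a4 and 0.81 for S100a1 (edgeR adjusted p = 0.00796). The values for S100a8 and S100a9 were 7.45 and 6.61 without sham day 14 replicate 4, the sham rat with the highest counts of both genes in its group. The call for S100a1 appears only against this later baseline, and this comparison shares its TBI rats with the day 1 comparison.

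Neutrophil genes were examined beside the calprotectin pair. Of 16 listed neutrophil markers 11 were tested, and 6 were higher at day 1, among them Csf3r, Cxcr2, Mmp9, Il1r2 and Trem1, and 1 (Csf3r) at day 14 by edgeR. The median log2 fold change of the 11 was 3.07 at day 1 and 0.44 at day 14. At an unadjusted p under 0.05 (edgeR), 3 were higher and 1 lower at day 14. Trem1 had 2, 0, 3 and 11 counts in TBI day 14 rats and 0, 0, 0 and 1 in sham day 14 rats. Without the 3 libraries high in choroid plexus markers its log2 fold change at day 14 was 4.19. Cxcr2, the chemokine receptor that guides neutrophils, had 52, 211, 91 and 46 counts in TBI day 1 rats, 2 and 0 in sham day 1 rats and 0, 0, 2 and 1 in TBI day 14 rats. Cxcr2 was thus near 0 outside the injured day 1 rats, as S100a8 was. The granule protein genes that neutrophils transcribe during their development in marrow differed among themselves, with Mpo at 1, 1, 2 and 2 counts and Ltf at 0 in all 4 TBI day 1 rats. Mmp8, which encodes the neutrophil collagenase, had 12, 48, 17 and 4 counts in these rats and 3 and 1 in the matched sham rats (log2 fold change 3.07, edgeR adjusted p = 0.0937). Elane, which encodes neutrophil elastase, had 11, 10, 16 and 1 counts in TBI day 1 and 0 in every other rat (edgeR adjusted p = 0.0662). Summed over the 16 markers, the injured rats had 51.9 to 96.2 CPM at day 1 and 37.0 to 50.1 at day 14, and the sham rats 12.1 to 22.1 and 14.9 to 31.6. Csf3r, which microglia also express, took 14.0 to 25.9 CPM of the TBI day 14 sums, and Mmp9 took 1.66 to 4.17. Cxcr2, Il1r2 and Trem1 each had at most 0.581 CPM in those rats. Most of what remained came from listed markers not named here, so Csf3r alone did not make up these sums. In replicate 1, for example, Csf3r took 18.9 of 50.1 CPM.

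The 4 TBI day 1 rats differed among themselves, and the members fell into different orders. From highest to lowest, S100a8 and S100a9 both ran replicate 2, 3, 1, 4, as did the neutrophil markers Cxcr2 and Trem1. Il1r2, Csf3r and Mmp9 did not share that order, with replicate 4 lowest for Il1r2, replicate 1 lowest for Csf3r and replicate 3 lowest for Mmp9. The highest rat had 4.45 times the CPM of the lowest for S100a8 and 4.07 times for S100a9. By contrast the ratio was 1.34 for S100a10 and 1.26 for S100a4, with replicate 4, the lowest for calprotectin, highest for both. It was 2.04 for S100a6 and 2.51 for S100a11. S100a1, S100a13 and S100a16 all ran replicate 1, 3, 4, 2, with ratios of 1.86, 2.89 and 2.09. With 4 rats these orders are a description and were given no test.

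**Figure D3:**
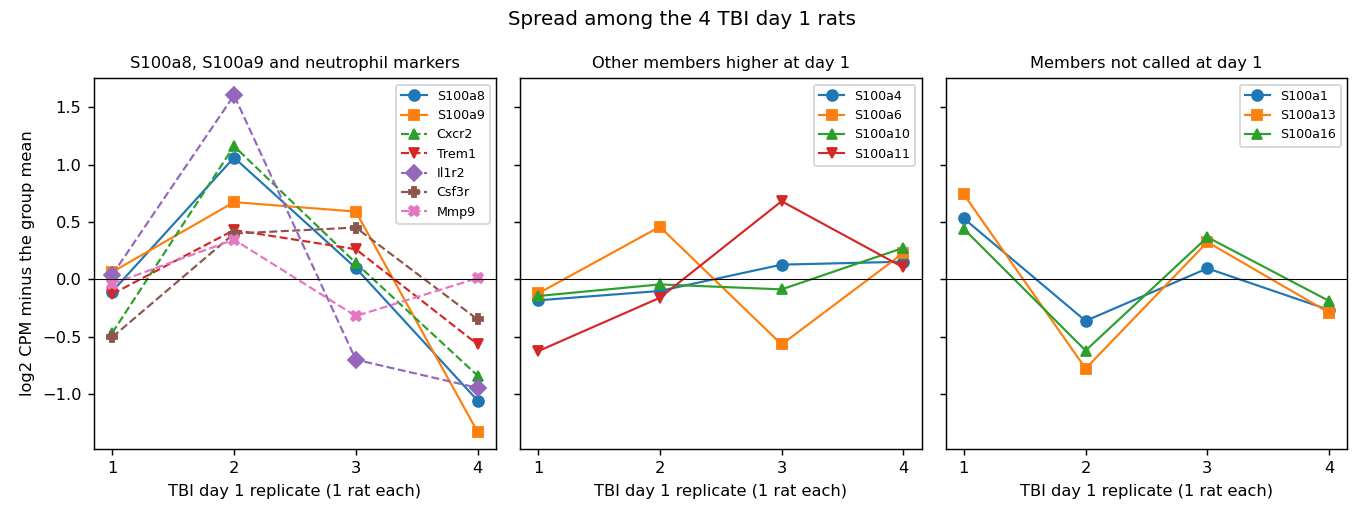
Log2 CPM of each gene in the 4 TBI day 1 rats minus the mean of that group (vertical axis) by replicate number; each mark is 1 gene in 1 rat and lines only join the marks of a gene, since replicates have no order. S100a8, S100a9, Cxcr2 and Trem1 are highest in replicate 2 and lowest in replicate 4, S100a4 and S100a10 stay within 0.28 of their means, and S100a1, S100a13 and S100a16 are highest in replicate 1 and lowest in replicate 2.

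Similarity of profiles was measured as the root mean square difference of log2 CPM, each gene centred on its mean, over the 14 rats. Among the 3 nearest genes outside the family were, for S100a8, Cxcr2 (0.47) and Ifit1, an interferon-induced gene (0.82), and for S100a9, Cxcr2 (0.59) and Sdc1 (0.63). S100a8 and S100a9 were 0.64 apart, and for each of them only 2 genes outside the family lay closer. S100a6 was nearest to Clic1 (0.39), Pdpn, the membrane protein podoplanin (0.39), and the metallothionein gene Mt1a (0.41), S100a10 to Pate4 (0.43), Sox7 and Maff (both 0.44), and S100a11 to Plp2 (0.40), the complement receptor gene C5ar1 (0.44) and Rgs18 (0.46). S100a4 was nearest to the complement inhibitor gene Serping1 (0.38), Rab32 (0.40) and the actin-capping gene Capg (0.43), and these 3 were higher at both days, as S100a4 was. S100a1 was nearest to Ndrg2 (0.20), a gene on the astrocyte list, and S100a16 had Lmf2 (0.17) and Gnb2l1 (0.18) among its 3 nearest. S100a13 was nearest to Acads, Il11ra1 and Naprt1 (0.24 to 0.27).

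Markers of glia and of other cells were counted beside the members. Over all tested genes edgeR called 11.2% higher and 7.93% lower at day 1, and 4.07% and 0.365% at day 14. These shares are the background for the neutrophil list above, these lists and those that follow. Of 11 reactive astrocyte markers, 11 were higher at day 1 and 8 at day 14, with median log2 fold changes of 3.90 and 1.74. Gfap, the astrocyte filament gene, had 28912 and 20653 counts in sham day 1 and 172124 to 284829 after TBI at day 1, and at day 14 it had 22129 to 32808 in sham and 85717 to 131950 after TBI. Homeostatic astrocyte markers did not follow: 2 were higher and 1 lower of 9 at day 1 (2 and 0 without the 3 libraries high in choroid plexus markers), and at day 14 edgeR called 0, with 3 at an unadjusted p under 0.05, 0 by limma-voom and 1 by DESeq2. Without those libraries 1, the water channel gene Aqp4, was higher at day 14 (0.82, edgeR adjusted p = 0.0360). Of 11 tested monocyte and macrophage markers 7 were higher at day 1 (9 without those libraries) and 1 at day 14. That 1 was the lysosomal gene Cd68, which activated microglia also express, with 1116 to 2845 counts after TBI at day 14 and 32 to 68 in the matched sham rats. Of 9 microglia markers, 1 was higher and 2 lower at day 1 (3 and 1 without those libraries), and 6 were higher at day 14. Endothelial markers had 2 of 8 higher at day 1 (Pecam1 and Vwf), and 3 without those libraries. Neuron and oligodendrocyte markers were lower for 5 of 10 each at day 1, and for 3 and 2 without those libraries. At day 14 edgeR called 0 endothelial, neuron and oligodendrocyte markers, with 1, 1 and 0 at an unadjusted p under 0.05, 0 of them by limma-voom and 1 (endothelial) by DESeq2. Fibroblast (8 tested) and red blood cell (6 tested) markers had 0 calls at either day by edgeR, limma-voom and DESeq2, with 2 and 1 at an unadjusted p under 0.05, although 3 fibroblast markers were higher at day 1 without the 3 libraries. Choroid plexus and ependyma markers were lower for 10 of 14 at day 1 and higher for 1 at day 14 by edgeR, in comparisons that include the 3 libraries named above. DESeq2 called 10 and 9 of them, and limma-voom 1 and 0. Without those libraries 3 were higher and 2 lower at day 1, and 0 were called at day 14 by edgeR. Which of these cells carried the S100A reads was not tested.

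Receptors and partners of the S100 proteins were read from fixed lists. Of 9 receptor genes, 3 were higher and 1 lower at day 1, and 2 were higher at day 14. Cd14, the co-receptor of TLR4, had 19 and 13 counts in sham day 1 and 828, 995, 826 and 746 in TBI day 1, a log2 fold change of 5.58 (edgeR adjusted p = 5.63e-06), and was still higher at day 14 (1.97, adjusted p = 0.00203). Tlr4 itself was higher at both days, by 1.70 (edgeR adjusted p = 0.0174) and 1.97 (adjusted p = 0.00440), with an adjusted p of 0.0525 at day 1 without the 3 libraries high in choroid plexus markers. Cd36, a scavenger and fatty acid receptor gene, had 1 and 0 counts in sham day 1 and 38, 170, 135 and 137 in TBI day 1. Alcam fell by 0.84 on the log2 scale at day 1 (edgeR adjusted p = 0.0191). Ager, which encodes RAGE, had 206 and 233 counts in sham day 1 and 657, 489, 399 and 267 in TBI day 1, a log2 fold change of 0.94 that did not pass (edgeR adjusted p = 0.0932).

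The genes of the annexin partners of S100A10 and S100A11 were also called at day 1. Of 6 annexin and Ahnak genes, 4 were higher at day 1 and 2 at day 14. Anxa2, the S100A10 partner, had 419 and 92 counts in sham day 1 and 1330, 2759, 2309 and 1922 in TBI day 1, a log2 fold change of 2.80 (edgeR adjusted p = 0.00167). Without the 3 libraries high in choroid plexus markers this value was 4.44. At day 14 Anxa2 was higher by 1.39 (edgeR adjusted p = 0.0494, and 1.68 without those libraries), whereas S100a10 was not called. The Anxa2 call at day 14 was lost with limma-voom (adjusted p = 0.0888), which called 1 of the 6 genes (Anxa1) at that day. Anxa1, the S100A11 partner and a mediator of the resolution of inflammation, was higher by 3.37 at day 1 (edgeR adjusted p = 0.000402) and 1.75 at day 14 (adjusted p = 0.00957), and by 4.51 and 2.24 without those libraries. Anxa5 (0.64) and Ahnak (1.41), a scaffold that binds the S100A10 and annexin A2 tetramer, were called higher at day 1 and not at day 14. Of 6 plasminogen activation genes, 4 were higher and 1 lower at day 1. Plaur, the urokinase receptor, had 4 and 5 counts in sham day 1 and 227, 286, 195 and 91 in TBI day 1, a log2 fold change of 5.31 (edgeR adjusted p = 0.000417). Plau, the urokinase gene, was higher at both days, by 2.81 and 2.52 (edgeR adjusted p = 0.000490 and 0.000234), whereas Plg, higher by 2.55 at day 1, and Serpine2, which fell by 0.52, were not called without the 3 libraries high in choroid plexus markers.

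Of 13 tested genes for intracellular targets, 1 was higher and 4 were lower at day 1. The shares over all tested genes were 11.2% higher and 7.93% lower. At day 14 edgeR, limma-voom and DESeq2 called 0, with 1 at an unadjusted p under 0.05. Iqgap1, a scaffold of the cell cortex, was higher by 0.78 (edgeR adjusted p = 0.00650). The ryanodine receptor gene Ryr2 fell by 1.40 on the log2 scale (edgeR adjusted p = 0.00224) and the calcium pump gene Atp2a2 fell by 0.67 (adjusted p = 0.0166), while S100a1, whose protein binds both, was not called. Il1a, whose product leaves cells with S100A13, fell by 1.81 (edgeR adjusted p = 0.0214), a call lost without the 3 libraries high in choroid plexus markers (-1.40, adjusted p = 0.168). Kcnk3, a potassium channel gene whose protein binds S100A10, fell by 0.97 (edgeR adjusted p = 0.0373).

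Of 10 further S100 genes listed, 6 were in the table and 2 were tested. S100a3 had 34 and 22 counts in sham day 1 and 245, 121, 143 and 113 in TBI day 1, and 32, 57, 37 and 42 in sham day 14 and 155, 163, 151 and 174 in TBI day 14. The groups did not overlap at either day, and the log2 fold changes were 2.36 (edgeR adjusted p = 0.00174) and 1.89 (adjusted p = 0.00164), so that S100a3 was called at both days, as S100a4 was. S100b, the astrocyte gene used as a blood marker of brain injury, had 41363 to 61913 counts after TBI at day 1 and 66698 and 46350 in the matched sham rats, and was not called at day 1 (-0.31, edgeR adjusted p = 0.304) or at day 14 (0.39, adjusted p = 0.319). Without the 3 libraries high in choroid plexus markers the day 1 value of S100b was 0.10 (edgeR adjusted p = 0.804).

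**Figure D4:**
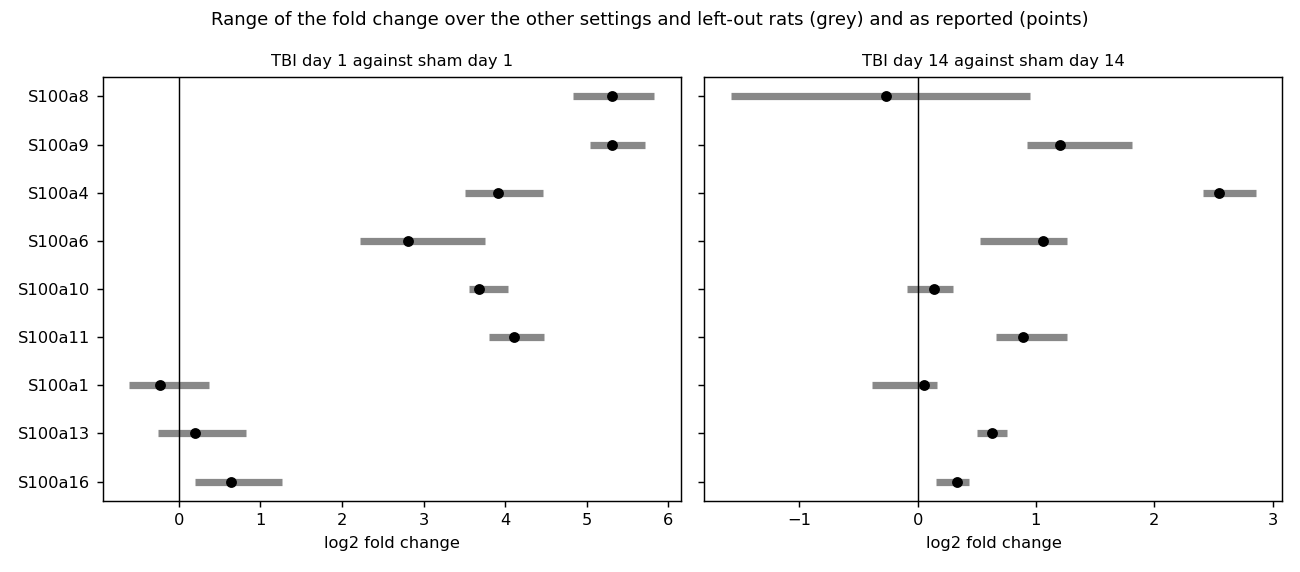
Log2 fold change of TBI over sham at day 1 (left) and day 14 (right) for each S100A gene: the points give the reported values and the grey bars run from the lowest to the highest value over the other settings and the fits that left out 1 rat. At day 1 the bars of the 6 called genes stay above 2.2, and at day 14 only the bar of S100a4 (2.42 to 2.86) lies above 2.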

How the data were processed

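Libraries were made from polyadenylated RNA with a stranded mRNA kit and sequenced as single-end 50-base reads. The authors aligned the reads to the rat build rn5 with STAR 2.4.2a and used featureCounts 1.5.0 with UCSC gene models for counting. The deposited values are raw counts, whole numbers with no normalization. Settings for strand and for reads with several alignments are not given in the sources used here. Total counts were 15065540 to 23743703 per rat. Replicates are different rats, and differences between replicates exceeded counting noise (chi-squared per degree of freedom 11.6 to 153 over 19 pairs).

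All 14 samples, grouped by their labels, entered 1 quasi-likelihood fit of edgeR 4.0.16 in R 4.3.3, with TMM factors, filterByExpr by group and 1 mean per group. Two-sided p-values of the 12875 tested genes were adjusted together (Benjamini-Hochberg), with a threshold of 0.05. Intervals are 95% intervals of the fit, and log2 CPM used a prior count of 2. Genes named are the 9 members, the genes of the fixed lists, and for each member the 3 nearest profiles. Some genes that this rule covers are left out of the text and not reported here. The members and lists were chosen with earlier results of these data known. Alternatives were limma-voom (limma 3.58.1), DESeq2 1.42.0, median-of-ratios factors, other filters, a replicate block, other baselines and sample sets, a choroid plexus covariate, and each rat left out. The edgeR, limma-voom and DESeq2 fits were tested on simulated data. Tables and figures were made with Python 3.11.15, pandas 2.3.3 and matplotlib 3.10.9. Promoters and gene order came from RefSeq tables of GRCr8. The H3K4me3 peak lists were not used, since their positions are on rn5 and no annotation of rn5 was used here.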

Additional observations from a re-analysis of the deposited data

Results flagged for a closer look

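For 3 genes the effect of TBI differed between day 1 and day 14 by the interaction test of edgeR. The log2 fold change over sham was larger at day 1 by 3.54 for S100a10 (adjusted p = 9.64e-06), by 3.22 for S100a11 (adjusted p = 0.0123) and by 4.11 for S100a9 (adjusted p = 0.0210). S100a10 kept this call in every alternative. For S100a9 and S100a11 it was lost with limma-voom (adjusted p = 0.224 and 0.0627), with the choroid plexus covariate (edgeR adjusted p = 0.0586 and 0.0538) and without the 3 libraries high in choroid plexus markers (edgeR adjusted p = 0.0794 and 0.0704). It was also lost for both without sham day 1 replicate 2 (edgeR adjusted p = 0.0809 and 0.0616), and for S100a9 without sham day 14 replicate 4 (edgeR adjusted p = 0.0942). No rat lay far enough from the other 3 of its group to stand out by Dixon's criterion in any of the 27 combinations of a member and a group of 4 rats, where chance alone would mark about 1 in 20.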

How the results depend on the processing

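The 6 members called at day 1, and S100a4 at day 14, kept their call in every alternative that tested them. At least 10 counts in every sample left S100a8, S100a9 and S100a11 untested: 3 members were then higher at day 1, 4 at TBI day 1 over sham day 14, 4 lower in TBI from day 1 to day 14, and 1 differed between the days. At day 14, DESeq2 called 2 members, the fit of only the groups compared 4 (S100a6 1.10, S100a13 0.66 and S100a16 0.37 added), the fit without the 3 libraries high in choroid plexus markers 2, and fits leaving out 1 rat 1 to 2. Sham day 1 over sham day 14 gave 1 call with the replicate block, 1 with only the groups compared, 0 without the 3 libraries, 0 with the choroid plexus covariate, 0 at an adjusted p under 0.01, 2 with limma-voom (S100a6 was lost, adjusted p = 0.166), and 0 to 3 with 1 rat left out. The rise of S100a13 in TBI from day 1 to day 14 was lost (0 calls) with only the groups compared, without the 3 libraries, with the covariate and at 0.01, and 0 to 1 calls remained with 1 rat left out. The difference between the days was called for 1 member by limma-voom, 6 by DESeq2, 5 with the replicate block, 1 with the covariate, 1 at 0.01, and 1 to 5 with 1 rat left out. Among all 12875 tested genes, the TBI effect was called higher at day 1 for 178 by limma-voom and 600 by DESeq2. It was 274 with the replicate block, 144 with the covariate and 288 as reported. TBI day 14 was called higher than sham day 14 for 903 of 12231 genes with only the groups compared. DESeq2 gave 674 of 12875 and the fit as reported 524. In these 2 comparisons the number of calls thus moved over all genes too. The causes were not tested.

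Values that changed sign had not passed the test. With all 6 sham rats as baseline, S100a1 was 0.37 at day 1 and -0.38 at day 14, S100a13 -0.070 at day 1 and S100a10 -0.087 at day 14. Without the 3 libraries S100a1 was 0.26 at day 1, S100a16 -0.011 from TBI day 1 to day 14, and the day differences of S100a1 and S100a13 were 0.23 and 0.15. With the covariate S100a1 was -0.066 at day 14, S100a16 -0.17 from TBI day 1 to day 14, and the day difference of S100a1 0.022. S100a8 was 0.15 at day 14 with limma-voom, and S100a11 0.017 between the shams with the replicate block. With 1 rat left out, the day 1 values ran from -0.61 to 0.27 for S100a1 and -0.25 to 0.83 for S100a13, the day 14 values from -1.23 to 0.95 for S100a8 and -0.075 to 0.17 for S100a1, and TBI day 1 over sham day 14 from -0.48 to 0.023 for S100a13. Between the shams they ran from -0.64 to 0.32 for S100a4, -0.56 to 0.12 for S100a11, -1.02 to 0.063 for S100a13 and -0.95 to 0.11 for S100a16, and from TBI day 1 to day 14 from -0.16 to 0.17 for S100a16. The day differences ran from -0.67 to 0.21 for S100a1, -0.88 to 0.20 for S100a13 and -0.13 to 0.93 for S100a16.

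Rats with the same number in different groups are different animals, and the samples were treated as unpaired. Over 18 such pairs the correlation of their deviations from the group means ran from -0.35 to 0.24, with 5 above 0.1. Pairs with different numbers were not compared, so these values cannot show whether a number stands for a shared batch. The fit of the genes with few counts is limited by depth: S100a8 had 0 to 5 counts in each sham and TBI day 14 rat. The day 1 comparisons rest on 2 sham rats, and fits without one of them assume that the remaining rat varies like the other groups.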
